A study of Homo sapiens with 2 samples.

Results

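The 10 genes described here are 3 components of Notch signalling at the cell surface (NOTCH2, NOTCH3, JAG1), 2 genes that Notch signalling is known to switch on (HES4, HEYL), and 5 genes used to recognise mural cells (RGS4, RGS5, ABCC9, KCNJ8, MGP). They were chosen by name, and all 10 were found among the 38606 genes counted. The cells were human mesenchymal stem cells of adipose origin from a commercial supplier, grown in plates to 90% confluency and starved overnight. The TGFB1 culture then received transforming growth factor beta 1 at 10 ng/mL for 24 hours, and the untreated culture received nothing; each became 1 single-cell library. The study, by its title, concerns progenitor cells behind an interleukin 11-dependent interplay of tumor and stroma in melanoma.

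Notch receptors are membrane proteins that are cut when a ligand such as JAG1 on a neighbouring cell binds them, and the released part enters the nucleus, where it joins the DNA-binding protein RBPJ and switches on HES and HEY repressors. Mural cells, the pericytes and smooth muscle cells of vessel walls, depend on NOTCH3 and on JAG1 from the endothelium, and HEYL is a known target in them. RGS4 and RGS5 shorten signalling through G protein-coupled receptors, ABCC9 and KCNJ8 together form an ATP-sensitive potassium channel, and MGP is a secreted inhibitor of calcification.

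The positions of the genes are those of GENCODE release 29 on GRCh38. NOTCH2 lies at chr1:119911553-120069626, NOTCH3 at chr19:15159038-15200981 and JAG1 at chr20:10637684-10673999. HES4 spans chr1:998962-1000172 and HEYL chr1:39624153-39639945. RGS4 (chr1:163068775-163076802) and RGS5 (chr1:163111121-163321791) are neighbours with 34318 bases between them, and KCNJ8 (chr12:21764955-21775581) and ABCC9 (chr12:21797401-21942529) are neighbours with 21819 bases between them. MGP lies at chr12:14881181-14885926. RGS4 is on the plus strand and the other 9 genes are on the minus strand.

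Promoters of the 2 Notch target genes are shown first, because HES4 was readily counted in these cells and HEYL was not, followed by those of the receptor NOTCH3 and the ligand JAG1. Each runs from 250 bases before to 50 bases after the gene's start in RefSeq on GRCh38.p14, 5′ to 3′ on the minus strand. RefSeq and GENCODE place some starts differently: along the gene, the RefSeq start lies 75 bases after the GENCODE start for HES4 and 302 bases after it for HEYL, whose window is wholly inside the GENCODE gene, and the starts of JAG1 coincide. Capitals mark each match to TGGGAA on either strand, the core of the sequence that RBPJ is known to bind.
HES4 (chr1:1000048-1000347): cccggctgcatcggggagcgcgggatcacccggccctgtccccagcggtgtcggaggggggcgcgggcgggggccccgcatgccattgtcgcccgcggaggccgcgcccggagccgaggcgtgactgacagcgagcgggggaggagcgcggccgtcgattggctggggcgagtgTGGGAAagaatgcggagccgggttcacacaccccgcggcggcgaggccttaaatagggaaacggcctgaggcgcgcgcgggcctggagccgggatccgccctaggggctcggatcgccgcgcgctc
HEYL (chr1:39639594-39639893): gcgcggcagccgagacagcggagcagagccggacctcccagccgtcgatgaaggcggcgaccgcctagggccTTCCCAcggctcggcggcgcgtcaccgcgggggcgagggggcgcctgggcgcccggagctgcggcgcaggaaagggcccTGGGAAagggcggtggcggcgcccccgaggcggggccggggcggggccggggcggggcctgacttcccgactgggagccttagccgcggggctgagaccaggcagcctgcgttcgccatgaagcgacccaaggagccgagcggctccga
NOTCH3 (chr19:15200946-15201245): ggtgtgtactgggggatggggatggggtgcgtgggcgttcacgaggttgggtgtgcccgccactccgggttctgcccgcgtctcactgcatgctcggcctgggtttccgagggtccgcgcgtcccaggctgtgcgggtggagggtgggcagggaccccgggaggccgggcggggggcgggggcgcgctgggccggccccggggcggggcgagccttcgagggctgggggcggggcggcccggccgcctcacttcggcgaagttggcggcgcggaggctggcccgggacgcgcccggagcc
JAG1 (chr20:10673950-10674249): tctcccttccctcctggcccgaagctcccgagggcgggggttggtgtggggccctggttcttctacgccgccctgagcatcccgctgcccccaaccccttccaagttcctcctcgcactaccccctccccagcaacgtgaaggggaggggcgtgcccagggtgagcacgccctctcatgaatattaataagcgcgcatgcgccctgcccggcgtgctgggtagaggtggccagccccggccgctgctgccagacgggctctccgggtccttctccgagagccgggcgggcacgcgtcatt

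The HES4 promoter held 1 match, at 76 to 71 bases before the RefSeq start. The HEYL promoter held 2 matches, at 178 to 173 bases before its RefSeq start on the other strand and at 99 to 94 bases before it as spelled, both after the GENCODE start. The first of these lay inside the longer sequence CGTGGGAA. Neither the NOTCH3 nor the JAG1 window held a match. Of the 10 genes, 9 had 1 or more windows, 13 windows in all. A match was held by 5 of the 13 windows, from 4 genes: HES4, HEYL, RGS4 and RGS5. The 2 RGS4 windows with a match overlap and hold the same site. Among all 35116 promoters of the same length, 24.0% held TGGGAA and 0.826% held CGTGGGAA. The matches describe these letters and are not shown to be sites.

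Unique molecular identifiers (UMIs) numbered 208991941 over 12555 cells in the TGFB1 library, where the median cell had 15134 UMIs from 4101 genes, and 169011524 over 8101 cells in the untreated library, where it had 19249 UMIs from 4888 genes. Levels are in CPM, the usual scale on which the UMIs of a gene are divided by all UMIs of the library or of the cells summed, so they compare a gene between cells and not 1 gene with another. With 1 library per condition no test of the treatment was possible: intervals are 95% intervals that cover counting error, and they compare these 2 libraries. For the 10928 genes that reached 5 CPM with TGFB1 or untreated, the median log2 ratio of TGFB1 over untreated was -0.10; 8.45% were higher by 1.5-fold or more, and 14.2% were lower by as much. Other scalings would move the ratio of each gene up by 0.155 (trimmed mean of M values) or 0.191 (median of ratios) on the log2 scale. The libraries shared 18 cell barcodes, 2 of them on cells of cluster 10, and all cells were kept. Stromal genes that go with the labelled cell type were abundant (COL1A1 9412 CPM with TGFB1 and 6862 CPM untreated), whereas the endothelial marker PECAM1 had 0.0574 CPM with TGFB1 and 0.0947 CPM untreated.

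NOTCH2 and NOTCH3 are receptors of the same family. NOTCH2 was counted at 69.0 CPM in the TGFB1 library and 61.8 CPM in the untreated library, a ratio of 1.12 (interval 1.09 to 1.15), which is under 1.5-fold. A UMI of NOTCH2 was seen in 56.5% of TGFB1 cells and 63.1% of untreated cells. That order turned round when every cell was thinned to 7500 UMIs, to 37.7% of 9330 TGFB1 cells and 34.9% of 7646 untreated cells, so no order is read from the shares. Reads of NOTCH2 can also come from its near-identical copies: NOTCH2NLA had 9.89 CPM with TGFB1 and 10.3 CPM untreated, and NOTCH2NLC had 9.30 CPM and 9.61 CPM in the same order, so the split of reads between them is uncertain.

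NOTCH3 had 2.83 CPM in the TGFB1 library and 1.57 CPM in the untreated library, a ratio of 1.80 (1.56 to 2.09), below the 5 CPM at which genes were called. A UMI of it was seen in 4.18% of TGFB1 cells and 2.84% of untreated cells, and after thinning in 1.98% and 1.06%. For scale, PTPRC, a leukocyte gene that these cells should lack, was seen in 0.558% of TGFB1 cells and 0.395% of untreated cells, and after thinning in 0.171% and 0.17%. The NOTCH3 shares thus lay above that background in both libraries.

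The ligand JAG1 had 1.26 CPM in the TGFB1 library and 2.16 CPM in the untreated library, a ratio of 0.585 (0.497 to 0.687). After thinning, 1.02% of TGFB1 cells (0.825% to 1.24%) and 1.28% of untreated cells (1.04% to 1.56%) had a UMI of JAG1, and these intervals overlap. None of the other 6 ligand genes listed reached 5 CPM: DLL3 had 1.18 CPM in each library, DLL1 had 0.517 CPM with TGFB1 and 0.988 CPM untreated, and DLK1 had no UMI in either library.

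HES4, a transcriptional repressor of the HES family that mice lack, had 10.3 CPM in the TGFB1 library and 4.74 CPM in the untreated library. The ratio was 2.17 (2.00 to 2.36), the highest among the members at 5 CPM or more. After thinning, 7.63% of TGFB1 cells (7.10% to 8.19%) and 3.26% of untreated cells (2.87% to 3.68%) had a UMI of HES4, so level and share pointed the same way. HEYL had 0 UMIs in the TGFB1 library, which allows a level of up to 0.0144 CPM by the limit of 3 UMIs and 0.0177 CPM by the two-sided interval, and 1 UMI in the untreated library, where 3 UMIs would be 0.0178 CPM; no fold is given. Both genes carry the RBPJ core sequence in the promoters printed above, and only HES4 was counted beyond a single UMI. Of the other 8 target genes listed, none reached 5 CPM: HES1, the best known of them, had 2.75 CPM with TGFB1 and 2.31 CPM untreated, and HEY1 had 0.856 CPM with TGFB1 and 0.260 CPM untreated, a ratio of 3.29 (2.35 to 4.69).

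**Figure D1:**
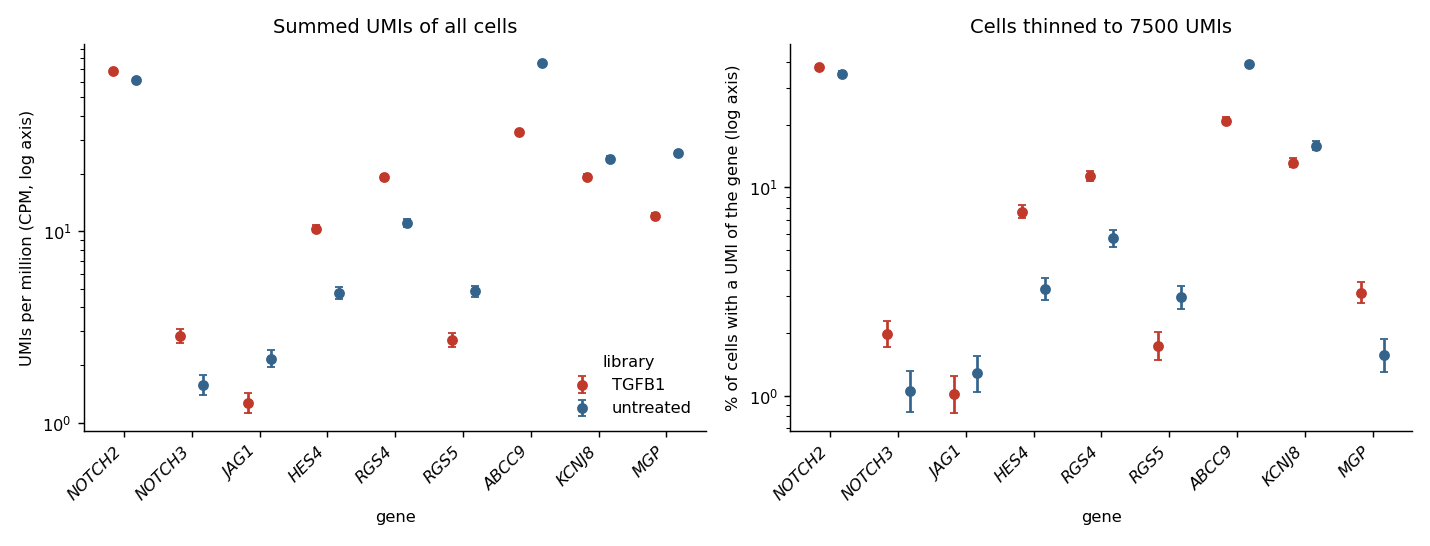
The left panel plots the level of each member in CPM on a log axis, with TGFB1 in red and untreated in blue, and the right panel the percent of cells with a UMI of the gene after each cell was thinned to 7500 UMIs, also on a log axis; bars are 95% intervals of counting error and HEYL, with 1 UMI in all, is not drawn. HES4 (10.3 CPM with TGFB1, 4.74 CPM untreated) and RGS4 (19.1 and 11.1 CPM) sit higher with TGFB1, ABCC9 (33.1 and 75.6 CPM) sits lower, and MGP is lower by level but higher by share of cells.

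The remaining genes of the pathway mostly differed by less than 1.5-fold. Of 60 listed Notch pathway genes, members included, 34 reached 5 CPM, 3 were at least 1.5-fold higher, 3 at least 1.5-fold lower and 28 neither, with a median log2 ratio of 0.06 beside -0.10 for all genes. Those higher were HES4, RBPJ, the DNA-binding partner of the cut receptor, with 149 CPM with TGFB1 and 96.0 CPM untreated (1.55, 1.53 to 1.58), and FURIN, a protease that cuts receptor precursors, with 16.5 CPM and 10.8 CPM (1.52, 1.44 to 1.61). Those lower were PSEN2, a catalytic subunit of the gamma-secretase that releases the receptor, with 3.60 CPM with TGFB1 and 6.92 CPM untreated (0.520), DTX3L, an E3 ligase of the Deltex family, with 11.9 CPM and 21.5 CPM (0.553), and KAT2B, an acetyltransferase recruited to the complex, with 8.51 CPM and 15.4 CPM (0.552).

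By role, 1 of 21 counted genes of receptor processing and trafficking was higher (FURIN) and 2 were lower (PSEN2, DTX3L), while among 11 counted genes of the nuclear complex 1 was higher (RBPJ) and 1 lower (KAT2B). The 3 mastermind coactivators went different ways: MAML1 had a ratio of 1.05, MAML2 of 0.772 and MAML3 of 1.40. The 3 of 34 called in each direction are read against 8.45% of all genes called higher and 14.2% called lower, and do not set the list apart.

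**Figure D2:**
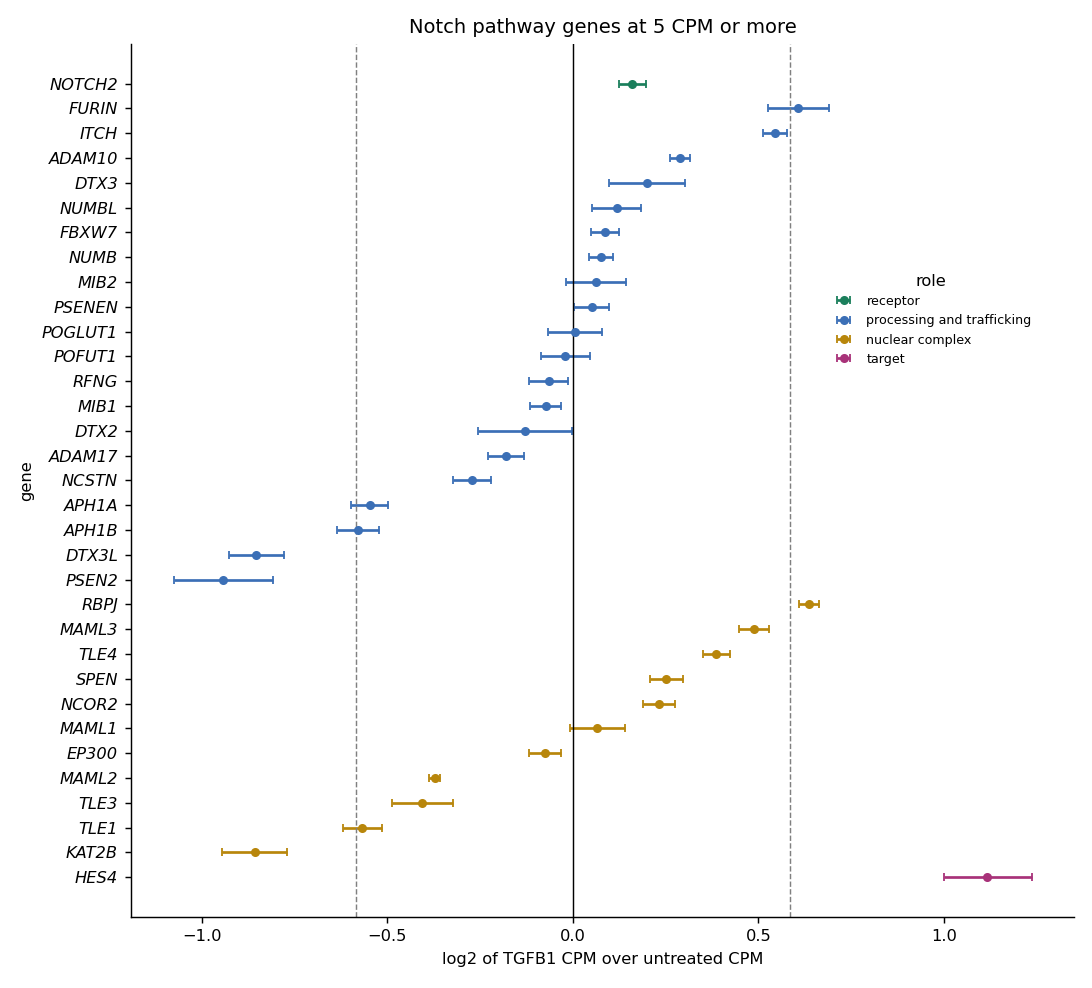
Each point is the log2 ratio of TGFB1 CPM over untreated CPM of a Notch pathway gene at 5 CPM or more in either library, coloured by role, with its 95% interval of counting error; dashed lines mark 1.5-fold in either direction. HES4 lies farthest to the right, PSEN2, KAT2B and DTX3L lie left of the lower line, and most points lie between the lines.

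The mural cell genes differed between the libraries in both directions. RGS4 had 19.1 CPM in the TGFB1 library and 11.1 CPM in the untreated library, a ratio of 1.73 (1.64 to 1.83), and its close relative and neighbour RGS5 had 2.70 CPM with TGFB1 and 4.84 CPM untreated, a ratio of 0.559 (0.501 to 0.623). After thinning, RGS4 was seen in 11.4% of TGFB1 cells and 5.69% of untreated cells, and RGS5 in 1.74% and 2.97%. The 2 genes thus differed in opposite directions by level and by share. RGS5 stayed under 5 CPM, and its antisense gene RGS5-AS1 has a row of its own, so how reads of the overlap were assigned cannot be told from the counts.

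The channel genes ABCC9 and KCNJ8 also differed to unequal degrees. ABCC9, the regulatory sulfonylurea receptor subunit, had 33.1 CPM in the TGFB1 library and 75.6 CPM in the untreated library, a ratio of 0.437 (0.425 to 0.450). KCNJ8, the pore subunit, had 19.3 CPM with TGFB1 and 23.8 CPM untreated, a ratio of 0.808 (0.774 to 0.845), under 1.5-fold. After thinning, a UMI of ABCC9 was seen in 20.9% of TGFB1 cells and 39.0% of untreated cells, and of KCNJ8 in 13.1% and 15.9%. Outside cluster 10, a thinned cell with ABCC9 also held KCNJ8 in 14.2% of cases, against 12.9% of cells without ABCC9, in the TGFB1 library, and in 16.8% against 15.3% in the untreated library, with overlapping intervals in each.

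MGP had 12.02 CPM in the TGFB1 library and 25.5 CPM in the untreated library, a ratio of 0.472 (0.449 to 0.496). Most of its UMIs came from cluster 10, 59.8% with TGFB1 and 76.3% untreated, and outside that cluster it had 4.87 CPM with TGFB1 and 6.06 CPM untreated, a ratio of 0.803 (0.735 to 0.877) that is no longer 1.5-fold. These levels rest on few cells: outside the cluster, 113 TGFB1 cells and 2 untreated cells held 50% of 1011 and 1020 UMIs. Without the cells that hold 10 or more UMIs of MGP, a limit set after the data were seen, the order outside cluster 10 turned round, to 3.84 CPM with TGFB1 and 1.52 CPM untreated. Over all cells the log2 ratio then turned from -1.08 to 1.70. The share of thinned cells with a UMI also ran that way, 3.13% of TGFB1 cells and 1.57% of untreated cells. The direction of the MGP ratio thus rests on these 36 TGFB1 cells and 33 untreated cells, 28 and 23 of them in cluster 10. The limit picks cells by MGP itself and took out 1430 of 2513 UMIs with TGFB1 and 4037 of 4306 untreated. The larger part was thus taken from the untreated library, and the ratio moved toward TGFB1. The limit depends on depth, and the part of depth was not tested. The turned order therefore describes only the cells left by that limit.

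Counted together, 6 of the 10 members reached 5 CPM in 1 or both libraries; 2 were 1.5-fold or more higher with TGFB1 (HES4, RGS4), 2 at least 1.5-fold lower (ABCC9, MGP) and 2 neither (NOTCH2, KCNJ8), where 8.45% and 14.2% of all genes were called. Their median log2 ratio was -0.07, beside -0.10 for all genes. It became 0.08 and 0.12 under the other 2 scalings, which move every gene up alike. With 2 members higher and 2 lower, the members had no common direction. Without the cells with 10 or more UMIs of MGP, which were picked by the counts of a member, 3 members were higher and 1 was lower, and the median was 0.49. No share of all genes was formed without those cells. With a minimum of 1 CPM, 9 members counted, and NOTCH3 was added to those higher and JAG1 and RGS5 to those lower, where 8.82% of 14720 genes were higher and 18.5% lower.

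The wider lists of mural genes are read against all genes at 5 CPM, whose median was -0.10 and of which 8.45% passed 1.5-fold upward and 14.2% downward with TGFB1. Of 22 pericyte genes, 6 of which are members, 10 reached 5 CPM, 1 was higher (RGS4), 2 were lower (ABCC9, and the transcription factor FOXF2 with 7.51 CPM with TGFB1 and 26.4 CPM untreated), and the median log2 ratio was -0.26. Of 18 smooth muscle genes, 13 reached 5 CPM, 9 were higher and 1 was lower, with a median of 0.79. Among those higher were MYOCD, a coactivator of contractile genes, with 19.7 CPM with TGFB1 and 2.96 CPM untreated, ACTA2, smooth muscle actin, with 1270 CPM and 202 CPM, PLN, a regulator of the calcium pump, with 12.6 CPM and 2.24 CPM, and CNN1, calponin, with 428 CPM and 105 CPM. SMTN, SORBS2, TAGLN, LMOD1 and TPM2 had ratios between 1.58 and 2.34, and RERGL was the 1 that was lower, with 2.11 CPM with TGFB1 and 7.23 CPM untreated. In the list of fibroblast and adipose progenitor genes, PI16 and CD55 were higher, PDGFRA, DCN, LUM, DPP4, COL14A1 and NT5E were lower, and the median was -0.63.

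The cells had been assigned to 11 clusters in the deposited cell table. Clusters 0, 3, 4, 5 and 8 were mostly TGFB1 cells and clusters 1, 2 and 6 mostly untreated cells, so for most cells the cluster and the treatment cannot be told apart. Clusters 7, 9 and 10 held cells of both. The clusters were made from the same counts, so a level by cluster is a description. Levels below are given for clusters with at least 50 cells of a library, 9 with TGFB1 and 5 untreated, and for cluster 10 in both.

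NOTCH2 was counted in every cluster: it ran from 50.3 CPM in cluster 4 to 106 CPM in cluster 10 with TGFB1, and from 46.3 CPM in cluster 2 to 72.0 CPM in cluster 6 untreated, with 90.5 CPM in cluster 10. NOTCH3 was low everywhere outside cluster 10, at most 6.20 CPM with TGFB1 and 7.11 CPM untreated, both in cluster 9. JAG1 stayed at 3.58 CPM or less outside cluster 10 with TGFB1 and at 3.05 CPM or less untreated. In the order of JAG1 levels, untreated cluster 10 (47.3 CPM, 32.9 to 65.8) lay above the next, cluster 9 (3.05 CPM, 1.12 to 6.63), and every other neighbouring pair had overlapping intervals in both libraries.

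HES4 with TGFB1 was highest in cluster 4 (14.4 CPM, 13.2 to 15.6), then in cluster 7 (11.5 CPM) and cluster 0 (10.5 CPM); untreated it was highest after cluster 10 in cluster 7 (8.18 CPM) and lowest in cluster 1 (3.97 CPM). RGS4 stood out in cluster 7, with 33.5 CPM with TGFB1 and 39.6 CPM untreated, and in cluster 6, with 35.2 CPM untreated, while the large untreated clusters 1 and 2 had 5.36 CPM and 6.51 CPM. Untreated cells were uneven in it: 161 of 8068 cells outside cluster 10 held 50% of the RGS4 UMIs there.

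ABCC9 was highest in cluster 1 in both libraries, with 88.6 CPM in 56 TGFB1 cells and 99.9 CPM in 3687 untreated cells. It was lowest in cluster 7 in both, with 20.7 CPM with TGFB1 and 24.7 CPM untreated. KCNJ8 ran from 10.1 CPM (cluster 7) to 23.3 CPM (cluster 1) with TGFB1 and from 10.8 CPM (cluster 10) to 27.2 CPM (cluster 2) untreated, with 11.4 CPM in cluster 7. RGS5 outside cluster 10 stayed at 4.48 CPM or less with TGFB1 and at 5.25 CPM or less untreated. MGP came second in cluster 9, with 65.4 CPM with TGFB1 and 141 CPM untreated, and was under 25 CPM in the remaining clusters.

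**Figure D3:**
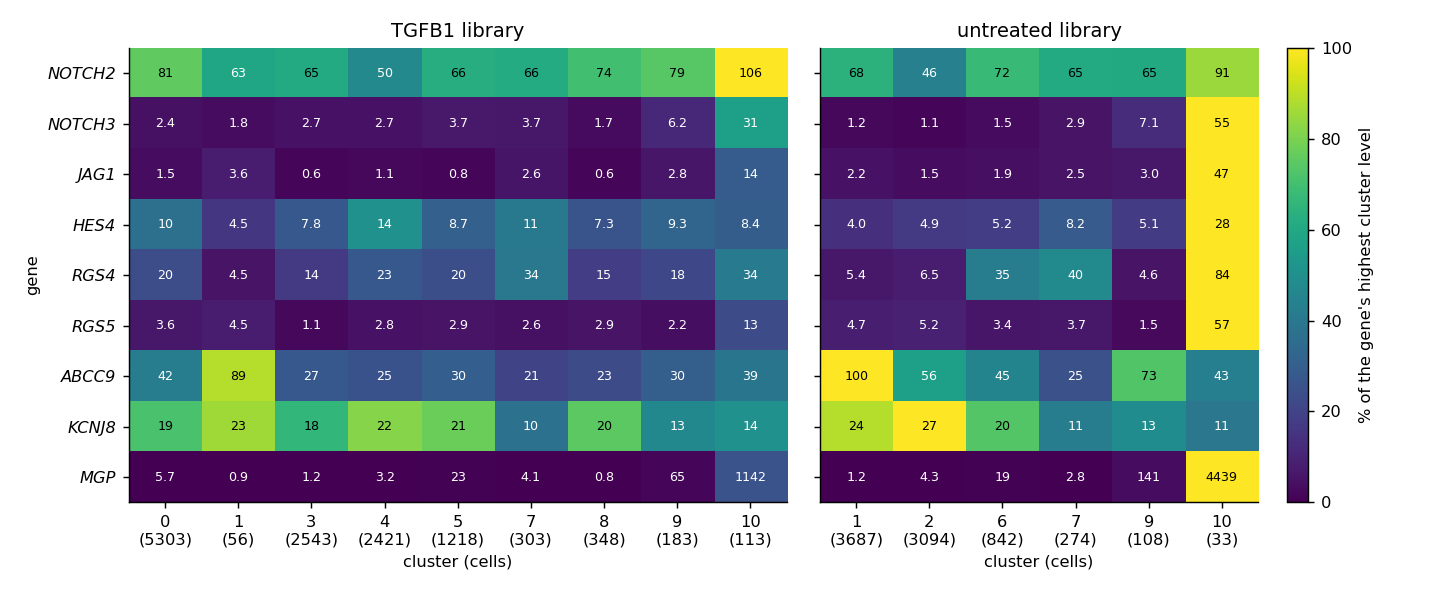
Rows are members and columns are clusters with their cells in brackets, TGFB1 library on the left and untreated library on the right; the number in a box is the level in CPM and the colour is the percent of that gene's highest level over both libraries. NOTCH3, JAG1, HES4, RGS4, RGS5 and MGP are brightest in untreated cluster 10, while ABCC9 is brightest in cluster 1 and KCNJ8 in untreated cluster 2.

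Cluster 10 held 113 TGFB1 cells, with a median of 9865 UMIs per cell, and 33 untreated cells, with a median of 22493. Its cells were rich in MGP and carried markers of smooth muscle and of pericytes in part. At 20 CPM or more there, 4 of 14 smooth muscle genes passed 4-fold over the other clusters with TGFB1, and 4 of 12 untreated. Of pericyte genes, members included, 3 of 8 and 6 of 10 did, where 1.14% and 2.6% of all genes did. Except for ACTA2 and CD248 untreated, the genes that passed were under 20 CPM outside the cluster. They met the 20 CPM limit only through the cluster where they were high, so these counts are read as a description. TAGLN, TPM2 and CNN2 were not higher there with TGFB1 (0.977, 0.981 and 0.840 times the other clusters). FOXF2, ANGPT1 and ANPEP of the pericyte list were lower there in both libraries. MYH11, smooth muscle myosin, had 144 CPM in cluster 10 against 0.838 CPM in the other clusters with TGFB1, and 71.6 CPM against 0.826 CPM untreated. Every UMI of CASQ2, a calcium store protein of muscle, 9 with TGFB1 and 8 untreated, came from cluster 10. ACTG2 (34.2 CPM against 0.101 CPM) and MYOCD (120 CPM against 19.1 CPM) passed 4-fold with TGFB1, as did SORBS2 (76.8 CPM against 7.96 CPM); untreated, ACTA2 (3569 CPM against 187 CPM), MYOCD (59.4 CPM against 2.72 CPM) and SORBS2 (107 CPM against 3.19 CPM) did. Of pericyte genes that are not members, NDUFA4L2 and MCAM passed 4-fold in both libraries, with 179 CPM against 4.17 CPM and 39.5 CPM against 4.66 CPM with TGFB1, and CD248 did untreated, with 172 CPM against 39.2 CPM.

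Other defining pericyte markers were missing there: COX4I2, STEAP4, GJA4, LAMC3 and HEYL had 0 UMIs in cluster 10 of both libraries, and HIGD1B had 1 UMI with TGFB1 and 0 untreated. The genes at 0 were near absent from the whole libraries too, each with at most 5 UMIs with TGFB1 and 2 untreated. Their absence is thus not particular to cluster 10. Over the whole list, 5 of 22 pericyte genes were at 0 UMIs in cluster 10 with TGFB1 and 7 untreated, and the summed level was 659 CPM against 378 CPM outside with TGFB1, and 1223 CPM against 481 CPM untreated. The smooth muscle list summed to 21803 CPM against 17851 CPM with TGFB1 and 17245 CPM against 10264 CPM untreated, with 1 of 18 genes at 0 in each. Some genes from other lists were high as well. ACAN, the cartilage proteoglycan, had 70.7 CPM against 0.154 CPM with TGFB1 and 216 CPM against 0.315 CPM untreated. ENG, a coreceptor for transforming growth factor beta, had 89.0 CPM against 7.34 CPM and 226 CPM against 5.71 CPM. KRT18 and COL14A1 passed 4-fold untreated. Other genes of those lists were not high there. SOX9, MATN3 and HAPLN1 of the cartilage list were not higher in either library, and COL2A1 had 0 UMIs. PDGFRA, DCN, DPP4, NT5E and THY1 were lower in both libraries, and PI16 and COL1A1 were under 1.5-fold higher. The epithelial genes EPCAM, KRT5 and CDH1 had 0 UMIs there. Of 9 endothelial genes, 6 had 0 UMIs in cluster 10 of each library, PECAM1, CDH5, VWF, KDR, CLDN5 and TIE1. TEK, the angiopoietin receptor, had 4.56 CPM against 0.534 CPM with TGFB1 and 5.40 CPM against 0.517 CPM untreated, from 6 and 4 UMIs. ERG had 8.37 CPM against 10.0 CPM with TGFB1 and 1.35 CPM against 1.49 CPM untreated, and EGFL7 9.13 CPM against 7.95 CPM and 18.9 CPM against 13.1 CPM. The cluster is called by its number because some genes of several lists, and not whole lists, were high in it.

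Several members were more abundant in cluster 10 than in the other clusters of the same library. With TGFB1, 5 of the 10 members were at 20 CPM or more there. Of these 5, 2 were at least 4-fold higher, NOTCH3 and MGP, where 1.14% of 6233 genes at that level were. Untreated, 8 of the 10 were at 20 CPM or more there. Of these 8, 6 were at least 4-fold higher, NOTCH3, JAG1, HES4, RGS4, RGS5 and MGP, where 2.6% of 6509 genes were. Outside the cluster each gene named here was under 20 CPM, so it passed that limit only through the cluster where it was high. Because the clusters were drawn from these same cells, the counts are read as a description.

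NOTCH3 had 31.2 CPM (22.4 to 42.3) in cluster 10 against 2.65 CPM outside it with TGFB1, and 55.4 CPM (39.7 to 75.1) against 1.33 CPM untreated. A UMI was seen in 25 of 113 TGFB1 cells and 21 of 33 untreated cells, which differ in depth. After thinning it was seen in 16 of 84 TGFB1 cells (11.3% to 29.1%) and 7 of 26 untreated cells (11.6% to 47.8%). These intervals overlap, so no order is read from the shares. JAG1 had 13.7 CPM (8.11 to 21.6) against 1.18 CPM with TGFB1, from 18 UMIs in 14 cells, and 47.3 CPM (32.9 to 65.8) against 1.96 CPM untreated, from 35 UMIs in 15 cells. The receptor and its ligand were thus both higher in the same cluster. Within it, after thinning, JAG1 was seen in 5 of 16 TGFB1 cells with NOTCH3 and in 6 of 68 without, and in 1 of 7 untreated cells with NOTCH3 and in 3 of 19 without, numbers too small to order.

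HES4 had 8.37 CPM (4.18 to 15.0) in cluster 10 against 10.3 CPM outside it with TGFB1, and 28.4 CPM (17.6 to 43.4) against 4.64 CPM untreated. RGS4 had 34.2 CPM (25.0 to 45.8) against 19.02 CPM with TGFB1, and 83.8 CPM (64.2 to 107) against 10.7 CPM untreated. For both genes the level in cluster 10 was lower with TGFB1, whereas the level in the other cells was higher with TGFB1. In untreated cluster 10, 1 cell held 6 of 21 UMIs of HES4 and 1 cell held 17 of 62 UMIs of RGS4. Without that cell the untreated levels were 21.2 CPM and 63.2 CPM. No interval was formed for these, so the order of HES4 in cluster 10 is uncertain. The MGP UMIs per cell also differed: 28 of 113 TGFB1 cells and 23 of 33 untreated cells held 10 or more. After thinning, 92.9% and 88.5% of cells in the cluster had a UMI of MGP. That limit depends on depth, so a lower level per cell cannot be told apart from a different mix of cells. In the cells with 10 or more UMIs of MGP, HES4 had 14.5 CPM (5.81 to 29.8) with TGFB1 and 28.8 CPM (17.0 to 45.5) untreated, with overlapping intervals. RGS4 had 43.4 CPM (26.8 to 66.3) with TGFB1 and 89.5 CPM (67.6 to 116) untreated in them. NOTCH2 was modestly higher in cluster 10, with 106 CPM against 68.8 CPM with TGFB1 and 90.5 CPM against 61.6 CPM untreated.

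RGS5 had 12.9 CPM (7.53 to 20.7) in cluster 10 against 2.64 CPM outside it with TGFB1, from 17 UMIs in 15 cells, and 56.7 CPM (40.9 to 76.7) against 4.61 CPM untreated. The untreated level came from 42 UMIs in 5 cells, 21 of them in 1 cell, and was 29.4 CPM without that cell. ABCC9 and KCNJ8 were not higher there in both libraries: ABCC9 had 38.8 CPM against 33.0 CPM with TGFB1 and 43.2 CPM against 75.7 CPM untreated, and KCNJ8 had 13.7 CPM against 19.3 CPM with TGFB1 and 10.8 CPM against 23.9 CPM untreated. With 33 untreated cells in the cluster, no ratio between the libraries was formed within it. The TGFB1 cells were also shallower, and the part of depth in these levels was not tested.

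**Figure D4:**
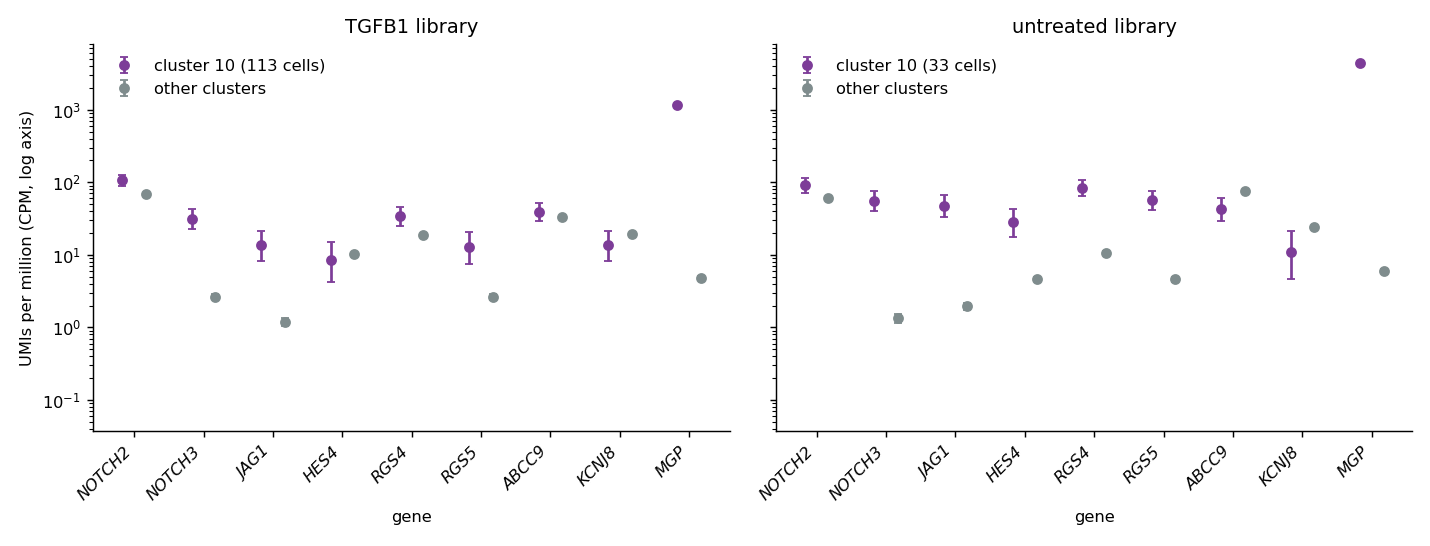
Levels of the members in CPM on a log axis in cluster 10 (purple) and in all other clusters (grey), TGFB1 library on the left and untreated library on the right, with 95% intervals of counting error. MGP stands apart in both panels (1142 CPM against 4.87 CPM with TGFB1, 4439 CPM against 6.06 CPM untreated), NOTCH3, JAG1 and RGS5 are higher in cluster 10 in both, and ABCC9 and KCNJ8 are not.

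MGP reached 1142 CPM (1085 to 1202) in cluster 10 with TGFB1 and 4439 CPM (4289 to 4593) untreated. With TGFB1, 106 of 113 cells had a UMI, with a median of 4 and a highest of 179 UMIs per cell; untreated, 28 of 33 cells had one, with a median of 63 and a highest of 539. The gene was unevenly spread over cells: 24 cells held 50% of all MGP UMIs of the TGFB1 library and 7 cells held 50% of those of the untreated library.

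Some cells outside cluster 10 were also rich in MGP. At 10 or more UMIs of MGP per cell there were 8 such cells with TGFB1 and 10 untreated. In the untreated library 2 of them in cluster 6 held 374 of that cluster's 394 MGP UMIs, and 1 in cluster 2 held 177 of 231, so the levels of MGP in those clusters are those of 1 or 2 cells. NDUFA4L2 was seen at 29.1 CPM (10.7 to 63.3) in the 8 TGFB1 cells, from 6 UMIs in 3 cells. In the 10 untreated cells it had 84.1 CPM (50.6 to 131), from 19 UMIs in 7 cells. In the remaining cells outside cluster 10 it had 4.14 CPM and 4.33 CPM. MCAM had 24.2 CPM (7.87 to 56.6), from 5 UMIs in 2 TGFB1 cells. Untreated it had 26.6 CPM (9.75 to 57.8), from 6 UMIs in 4 cells. In the remaining cells MCAM had 4.64 CPM and 1.59 CPM. These levels rest on few UMIs. MYH11 had 0 UMIs in both sets, which allows up to 17.9 CPM with TGFB1 and 16.3 CPM untreated. NOTCH3 had 1 UMI in the 8 TGFB1 cells and 2 UMIs in the 10 untreated cells, too few to set a level.

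Clusters 1, 7 and 9 held at least 50 cells of each library, so ratios between the libraries are given within them as a description. Cells were grouped by these same counts, so the cells of a cluster are alike by construction. A ratio near 1 within a cluster is therefore partly set in advance. Cluster 1 held 56 TGFB1 cells, 0.446% of that library. In cluster 7 (303 TGFB1 cells, 274 untreated cells) HES4 had 11.5 CPM with TGFB1 and 8.18 CPM untreated (1.40, 0.98 to 2.02), and in cluster 9 (183 and 108 cells) 9.29 CPM and 5.08 CPM (1.83, 0.871 to 4.196). In all 3 clusters HES4 was higher with TGFB1, each time with an interval that included 1. RGS4 was higher with TGFB1 in cluster 9, with 18.3 CPM and 4.57 CPM (3.998, 1.97 to 9.17), but not in cluster 7, with 33.5 CPM and 39.6 CPM (0.847, 0.706 to 1.02), nor in cluster 1, with 5 and 454 UMIs (0.835, 0.270 to 1.96). For RGS4 the intervals in clusters 7 and 1 included 1, so no opposite direction is shown there.

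ABCC9 was lower with TGFB1 in cluster 9, with 30.4 CPM and 72.6 CPM (0.418, 0.320 to 0.544), close to the ratio over all cells. It differed by less than 1.5-fold in cluster 1, with 88.6 CPM with TGFB1 and 99.9 CPM untreated (0.887, 0.720 to 1.08), and in cluster 7, with 20.7 CPM and 24.7 CPM (0.837, 0.663 to 1.06). MGP was lower with TGFB1 in cluster 9, with 65.4 CPM and 141 CPM (0.465, 0.387 to 0.558), where 4 TGFB1 cells and 7 untreated cells with 10 or more UMIs held 124 of 211 and 214 of 277 UMIs. NOTCH3, JAG1 and RGS5 rested on 2 to 25 UMIs per library in clusters 7 and 9 and, with TGFB1, in cluster 1, and all of their intervals there included 1.

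**Figure D5:**
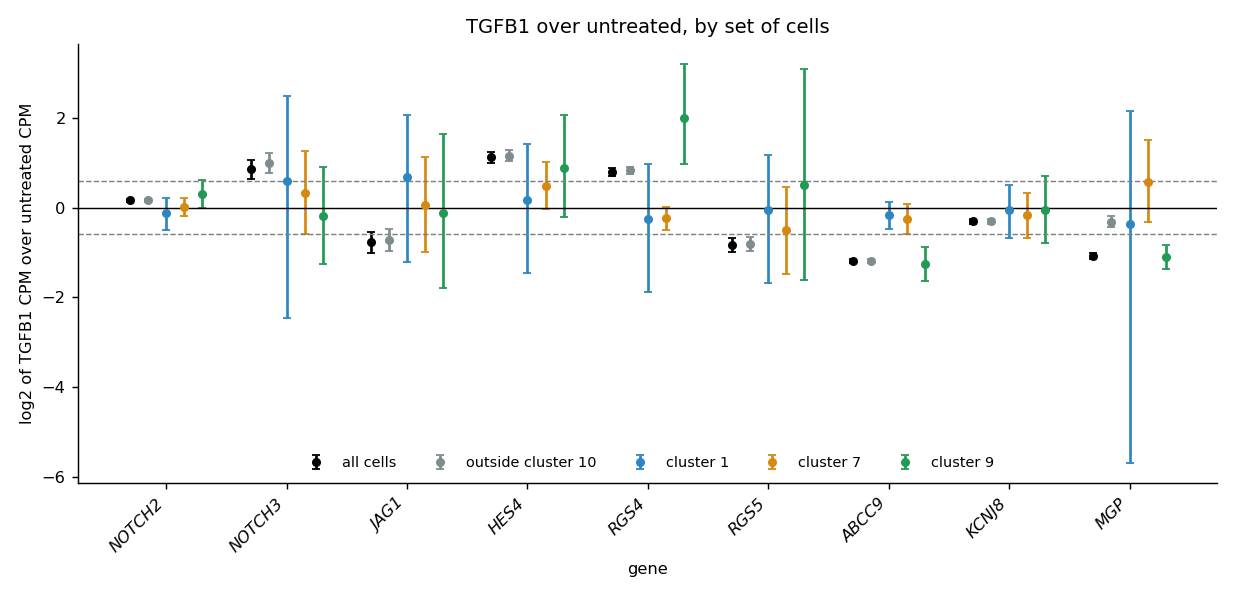
The vertical axis is the log2 ratio of TGFB1 CPM over untreated CPM of each member, over all cells (black), outside cluster 10 (grey) and within clusters 1, 7 and 9 (blue, orange, green), with 95% intervals of counting error; dashed lines mark 1.5-fold in either direction. For MGP the ratio outside cluster 10 lies inside the dashed lines, and for RGS4 and ABCC9 the clusters differ, cluster 9 lying at 3.998-fold and 0.418-fold.

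The members were also set against all other genes at 5 CPM or more in at least 1 cluster, by Pearson's correlation of log2(CPM + 1) over the 11 clusters of both libraries together. These points share libraries and differ in depth, and no test was made. The genes most like NOTCH3 were RNF180, ANK3, MCAM, COL4A1 and H19 (r from 0.957 to 0.969), and without cluster 10 the r of these 5 lay between 0.767 and 0.869. Most like JAG1 were ADA, LINC01611, ENSG00000234147, LDB3 and RGS7BP (0.967 to 0.981), and most like MGP were COL4A5, SRGN, A2M, PRG2 and RARB (0.933 to 0.946). Without cluster 10 these fell to 0.759 to 0.869 for JAG1 and to 0.782 to 0.833 for MGP. MCAM, a surface marker of mural cells, is thus among the 5 closest to NOTCH3.

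For HES4 the closest genes were PEA15, SELENOW, HSD17B6, ACTA2 and ULBP2, with r between 0.932 and 0.958, and between 0.910 and 0.946 without cluster 10. For RGS4 they were TBX2, ENDOD1, RDH11, KIF5B and ETS2 (0.803 to 0.866), and for RGS5 LINC03013, TP53I11, INPP5K, PRR15 and KCTD6 (0.929 to 0.946). Without cluster 10 these were 0.751 to 0.830 for RGS4 and 0.659 to 0.841 for RGS5. ABCC9 was closest to MAP2, WASHC2A, PIK3R1, ASTN1 and PKD1L1-AS1 (0.923 to 0.945), KCNJ8 to METAP2, HOXB-AS3, CBX8, ENSG00000264067 and ANXA5 (0.9004 to 0.948), and NOTCH2 to DLGAP4, INPP5A, ENSG00000290856, OSBPL11 and ENSG00000289528 (0.932 to 0.936). No gene was among the 5 closest of more than 1 member. Between members, NOTCH3 and MGP had r = 0.905 (0.660 without cluster 10), JAG1 and RGS5 0.884 (0.316 without it), NOTCH3 and JAG1 0.861 (0.206 without it), NOTCH3 and RGS5 0.683 (-0.656 without it), and ABCC9 and KCNJ8 0.352 (0.412 without it).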

How the data were processed

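Single-cell RNA was measured in 1 TGFB1 library and 1 untreated library. The deposited matrix gives unnormalized UMI counts of 38606 genes, named by symbol, for every cell. A deposited cell table adds the library, the cluster and the mitochondrial percent of UMIs, at most 5.00% in each library. Cell Ranger 9.0.1, Seurat and GRCh38 are named in the submitters' processing notes; the sources used here do not give the gene annotation. No doublet caller was run, so cells were used as deposited.

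UMIs were summed by library and cluster and divided by the UMI total of the cells summed (CPM). Ratios have exact conditional binomial (Clopper-Pearson) intervals, levels have exact Poisson intervals, and percentages of cells have exact binomial intervals, all at 95%; they cover counting error, since cells are not replicates. A count of 0 allows up to 3 UMIs. Genes were called at 1.5-fold and 5 CPM or more in either library, and in cluster 10 at 4-fold and 20 CPM or more. Groups under 50 cells got no ratio between libraries. Cells were thinned to 7500 UMIs, leaving out 3225 TGFB1 cells and 455 untreated cells. edgeR 4.0.16 supplied scaling factors by the trimmed mean of M values and no test. The steps were tested on simulated data.

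The members and the gene lists were chosen with earlier results of these data known. Named were all members, listed genes past 1.5-fold (at most 8 per list, by absolute log2 ratio, and any others of a small count) or past 4-fold in cluster 10, and the 5 genes most like each member; genes of the endothelial, epithelial, cartilage and cell cycle lists past 1.5-fold appear among the other observations. Of the counted Notch pathway genes, 1 is not reported or drawn here. Promoters came from the RefSeq table on GRCh38.p14. Calculations ran in R 4.3.3 and Python 3.11.15 (matplotlib 3.10.9, scipy 1.17.1, pandas 2.3.3, numpy 2.4.6).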

Additional observations from a re-analysis of the deposited data

Results flagged for a closer look

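For 2 members the TGFB1 library lay on opposite sides of the untreated library inside and outside cluster 10; the difference was not tested, because each library is 1 sample and the untreated cluster 10 holds 33 cells. HES4 had 8.37 CPM with TGFB1 and 28.4 CPM untreated in cluster 10, and 10.3 CPM with TGFB1 and 4.64 CPM untreated outside it. RGS4 had 34.2 CPM with TGFB1 and 83.8 CPM untreated in cluster 10, and 19.02 CPM with TGFB1 and 10.7 CPM untreated outside it. Without the 1 cell of cluster 10 with the most UMIs of the gene, the untreated levels were 21.2 CPM for HES4 and 63.2 CPM for RGS4. That cell held 6 of 21 UMIs for HES4 and 17 of 62 for RGS4, and no interval was formed without it. In the 28 TGFB1 cells and 23 untreated cells of the cluster with 10 or more UMIs of MGP, HES4 had 14.5 CPM (5.81 to 29.8) with TGFB1 and 28.8 CPM (17.0 to 45.5) untreated, and RGS4 had 43.4 CPM with TGFB1 and 89.5 CPM untreated. The cells of cluster 10 had a median of 9865 UMIs with TGFB1 and 22493 untreated, and the part of depth was not tested.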

How the results depend on the processing

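No paired analysis was possible because each condition is 1 library, and for the same reason no replicate could be left out. Of the values for ratios over all cells, 59 moved by less than their counting interval, 50 moved beyond it and 8 of ratios past 1.5-fold reversed; of 108 values for levels in cluster 10 relative to the other clusters, 93 stayed within it and 15 moved. MGP reversed to a log2 ratio of 1.70 without cells holding 10 or more UMIs of MGP, and to 1.34 outside cluster 10; this setting and the comparison within clusters were chosen after seeing the data. The other 7 reversals were within single clusters: on the log2 scale NOTCH3 was -0.20 in cluster 9, JAG1 0.68 in cluster 1 and 0.0681 in cluster 7, RGS4 -0.26 in cluster 1 and -0.24 in cluster 7, RGS5 0.51 in cluster 9 and MGP 0.58 in cluster 7. NOTCH2, under 1.5-fold over all cells, also changed sign in cluster 1, to -0.13. Cells were grouped into clusters by these same counts, so the ratios within clusters are a description. The difference in the percent of cells with a UMI of NOTCH2, TGFB1 minus untreated, reversed to 2.72 points after thinning to 7500 UMIs and 2.62 points after thinning to 5000. The cause of these changes was not tested.

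The median log2 ratio of the members changed sign to 0.0813 with scaling by the trimmed mean of M values, 0.12 with the median of ratios, 0.16 without clusters 7, 9 and 10 and 0.49 without the MGP-rich cells. It was -0.00842 with equal weight per cell, -0.34 without cells holding MKI67 or TOP2A, -0.31 at a minimum of 1 CPM or of 1 UMI in each library, and -0.70 at 20 CPM. The number of members at least 1.5-fold lower fell to 1 with equal weight per cell, after thinning, without cluster 10, without clusters 7, 9 and 10 and without the MGP-rich cells, and was 4 at 1 CPM and with 1 UMI in each library; the number higher was 0 at 20 CPM.

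Shares of all genes past 1.5-fold were formed only at 5 CPM and at 1 CPM (8.82% higher, 18.5% lower), without rescaling. The other counts, for the members above and the lists here, have no such share beside them, so no trait of a list is read from them. In the Notch pathway list, 5 genes were higher and the median was 0.21 with the trimmed mean of M values, and 5 and 0.25 with the median of ratios. Those 2 scalings move every gene up alike, by 0.155 and 0.191. At 1 CPM 6 genes were lower, at 20 CPM 1 was higher and 1 lower, and with 1 UMI in each library 7 were higher and 8 lower. The pericyte median was -0.107 and -0.0701 under those 2 scalings, -0.50 at 20 CPM and -0.17 with 1 UMI in each library. Pericyte genes lower numbered 4 with equal weight per cell and 4 with 1 UMI in each library, and those higher numbered 3 at 1 CPM, 0 at 20 CPM and 5 with 1 UMI in each library. The smooth muscle median was 0.94 and 0.98 under the 2 scalings, 0.88 with equal weight per cell, 0.89 after thinning, 0.82 without clusters 7, 9 and 10, 0.76 without cells holding MKI67 or TOP2A, 0.78 at 20 CPM and 0.70 with 1 UMI in each library; genes lower numbered 0 at 20 CPM and 3 with 1 UMI in each library. Depth limits the members with few UMIs: HEYL could not be compared, and JAG1, RGS5 and NOTCH3 in cluster 10 rest on 17 to 42 UMIs per library.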

Other observations

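Some listed genes outside the Notch pathway and the mural lists also passed 1.5-fold. The endothelial transcription factor ERG had 10.0 CPM with TGFB1 and 1.49 CPM untreated, and EGFL7 had 7.96 CPM with TGFB1 and 13.1 CPM untreated, while PECAM1, CDH5, VWF, KDR and CLDN5 stayed at 0.130 CPM or less in both libraries. The cartilage genes SOX9, MATN3 and HAPLN1 had ratios of 1.85, 2.47 and 1.98, and the keratin gene KRT18 had 80.2 CPM with TGFB1 and 35.1 CPM untreated. Both cell cycle genes listed, MKI67 and TOP2A, were lower with TGFB1, and their summed level was 20.5 CPM with TGFB1 and 77.8 CPM untreated.

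Among ligand and receptor genes that are not members, NOTCH1 had 1.23 CPM with TGFB1 and 1.88 CPM untreated over all cells, and 3.04 CPM with TGFB1 and 16.2 CPM untreated in cluster 10, from 4 and 12 UMIs. LFNG, a glycosyltransferase that modifies Notch receptors, had 8.37 CPM in cluster 10 against 0.775 CPM outside it with TGFB1, and 12.2 CPM against 0.517 CPM untreated, from 11 and 9 UMIs. These 2 genes were named after their values were seen.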
